A study of Homo sapiens with 12 samples.

Results

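The course of 9 genes was followed in shA673-1c cells after transcription was stopped with actinomycin D. NR0B1, NKX2-2, GLI1, BCL11B, PRKCB, PPP1R1A, STEAP1, CD99 and CAV1 are known as targets of the EWSR1-FLI1 fusion protein or as diagnostic markers of Ewing sarcoma. They were taken by symbol from the table of read counts, which lists 26334 gene symbols, and each of the 9 had 1 row. A673 is an established Ewing sarcoma cell line, and the labels describe shA673-1c as Ewing sarcoma cells grown with blasticidin and zeocin. The prefix and the suffix of that name are not explained by the labels, and neither an shRNA target nor an inducer is given for these samples. All groups were the same cells given 5 µM actinomycin D, for 0, 1, 2 or 4 h, with 3 biological replicates at each time and 12 polyadenylated RNA libraries in all. The 0 h samples were therefore the start of the course, and no vehicle-treated course was analysed here. Library totals ran from 9147018 to 11194705 counts, and the short-lived transcripts JUN, IER2 and EGR1 fell with time, with slopes of -0.89, -0.84 and -0.56 log2 per hour.

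EWSR1-FLI1 joins the activation domain of EWSR1 to the DNA-binding domain of the ETS factor FLI1. The fusion protein binds GGAA motifs, and at runs of such motifs it can open chromatin and switch on genes that are silent in other tissues. NR0B1 and NKX2-2 are transcriptional repressors that act downstream of the fusion, and CD99 and NKX2-2 are stained in pathology to recognise the tumour. Actinomycin D blocks RNA synthesis, so the loss of a transcript over the following hours follows its decay.

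The marker identity of the cells was checked first. Of the 9 genes, 8 had counts in all 12 libraries, NR0B1 and NKX2-2 among them. CD99, the membrane glycoprotein that is the classical surface marker, was listed at 0 in all 12. In these libraries 3 counts correspond to 0.266 to 0.355 CPM (counts scaled to library size by the trimmed mean of M values, TMM). The annotation places CD99 at chromosome X:2691187-2741309 (GRCh38), in the region that the X and Y chromosomes share. All 22 of the 22 genes in the table that stand at the same coordinates on X and Y were listed at 0 in all libraries, although SLC25A6, a mitochondrial ATP carrier used by most cells, is among them. Of all symbols listed, 28.1% were at 0 in all libraries. XG, which crosses the boundary of that region and is itself a known fusion target, had 3 to 13 counts. How reads that match both chromosomes were counted is not stated and was not tested, so the zeros of CD99 are not read as absent expression. Its relative CD99L2, which lies outside the region, was measured at 71.0 CPM at 0 h.

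Markers of other cell types were low, apart from keratins 8 and 18 and the neuroblastoma gene HAND2. The summed level of 5 skeletal muscle genes ran from 0.533 to 3.20 CPM over the 12 libraries, and 3 of the 5 were at 0 throughout. The summed levels of 5 lymphoid and 5 endothelial genes reached at most 3.34 and 1.32 CPM, and 3 of the 5 lymphoid genes were at 0. Neuroblastoma genes summed to 4.16 to 11.2 CPM, nearly all of it from HAND2. At 0 h HAND2 had a mean of 10.8 CPM, above NKX2-2 at 7.08 CPM. The 5 epithelial genes summed to 247.5 to 394.3 CPM, and this sum did not separate the time points. Nearly all of it came from keratin 18, with a mean of 307.6 CPM at 0 h beside 11.8 CPM for keratin 8. EPCAM had 1 to 6 counts per library, and CDH1 and KRT19 had 0 to 1.

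Levels at 0 h spanned a wide range. To compare genes, TMM-scaled CPM was divided by the length of the canonical transcript in kilobases. CAV1, the main coat protein of caveolae, stood highest at 1015 ± 131 CPM per kb (SD, n = 3), above 99.7% of the 11213 tested genes that had a transcript length. STEAP1, a six-transmembrane surface antigen, followed at 50.1 ± 5.35 CPM per kb. The nuclear receptor NR0B1 (DAX1) stood at 21.0 ± 2.78 CPM per kb, above 71.4% of genes. PRKCB, a calcium-dependent protein kinase C, was at 15.5 ± 2.80 CPM per kb, and PPP1R1A, an inhibitor of protein phosphatase 1, at 12.04 ± 3.57 CPM per kb. The zinc finger repressor BCL11B was at 5.66 ± 0.335 CPM per kb. GLI1, the zinc finger activator at the end of Hedgehog signalling, was at 3.91 ± 1.25 CPM per kb, and the homeobox factor NKX2-2 at 3.34 ± 0.375 CPM per kb, above 26.2% of genes. The 3 libraries of PRKCB overlapped those of PPP1R1A, and those of GLI1 overlapped those of NKX2-2. The other neighbours in this order did not overlap. The diagnostic factor NKX2-2 had the lowest mean of the 8 per length of transcript.

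**Figure D1:**
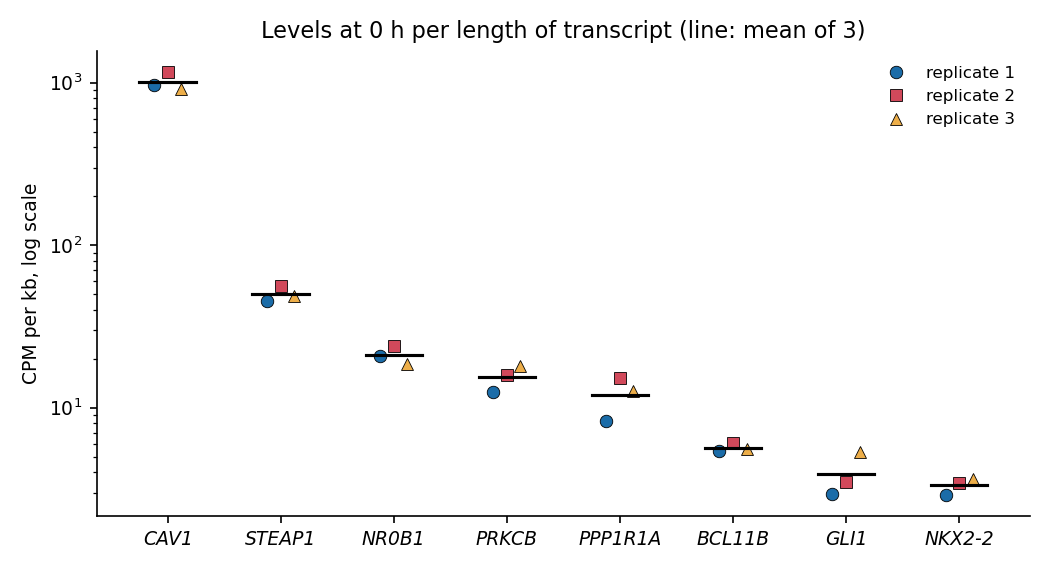
Level at 0 h of the 8 genes with counts, in CPM per kilobase of canonical transcript on a log axis; points are the 3 libraries of each gene and the line is their mean. CAV1 at 1015 CPM per kb stands far above the others, and PRKCB with PPP1R1A and GLI1 with NKX2-2 are the neighbours whose libraries overlap.

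The promoters are shown because GGAA is the letter pattern that the fusion protein reads. RefSeq promoter windows (GRCh38.p14, 250 bases before to 50 after a start) were given for 7 of the 9 genes, and GLI1 and PPP1R1A had none. GGAA was counted on both strands, and GGAA on the opposite strand reads TTCC. Over 35116 windows the median was 3 matches, 95.5% held at least 1, and 3.67% held a tandem of at least 2. NR0B1 had 5 matches, STEAP1 had 4 and CD99 had 2. Of 3 windows of CAV1, 2 had 5 with a tandem of 2, and the other had 0. These 2 windows overlap and have the same 30 bases with most matches, so they are not separate counts. BCL11B and PRKCB had 0. NKX2-2 had 1 match in a window at chr20:21522640-21522939 and 0 in one at chr20:21512911-21513210 (minus strand). Neither window holds position 21514064, where the GENCODE locus of NKX2-2 starts, so the sequence at that start was not examined. The 30 bases with most matches in the promoters of NR0B1 and STEAP1 are given with GGAA or TTCC in capitals, for NR0B1 at chrX:30309608-30309637 (minus strand) and for STEAP1 at chr7:90154341-90154370 (plus strand).
NR0B1: agGGAAaggggtaatgagaGGAAggaGGAA
STEAP1: ggagtcttagcctccaaggacgTTCCGGAA
The windows lie beside start sites given by RefSeq, and a long GGAA run further away would not be in them.

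After actinomycin D, NR0B1, NKX2-2 and BCL11B fell. GLI1, the other transcriptional regulator, did not pass the test, and neither did PRKCB, PPP1R1A, STEAP1 and CAV1. The slope over 0, 1, 2 and 4 h was fitted with edgeR's quasi-likelihood test over the 12032 genes that averaged 10 counts or more, 8 of them from this set, with Benjamini-Hochberg adjustment over all of them. In this fit 3 of 8 genes were called lower, where 32.1% of all genes tested were called lower. None was called higher, where 30.7% of all genes were (1 gene, PRKCB, at an unadjusted p below 0.05, and 0 with DESeq2 or limma). These calls change when the replicate number, which paired the samples, is added as a block: 4 of 8 were then called lower, GLI1 being the fourth, where 34.8% of all genes were, and PRKCB, PPP1R1A and CAV1 were called higher, where 36.2% of all genes were. The share of 3 in 8 was near that of all genes, and the median slope of the 8 was -0.033 log2 per hour beside 0.0093 for all genes. CPM is relative to the RNA that remained in each library, and no spike-in was described. In bulk RNA, fewer cells with a transcript and less of it per cell cannot be told apart.

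**Figure D2:**
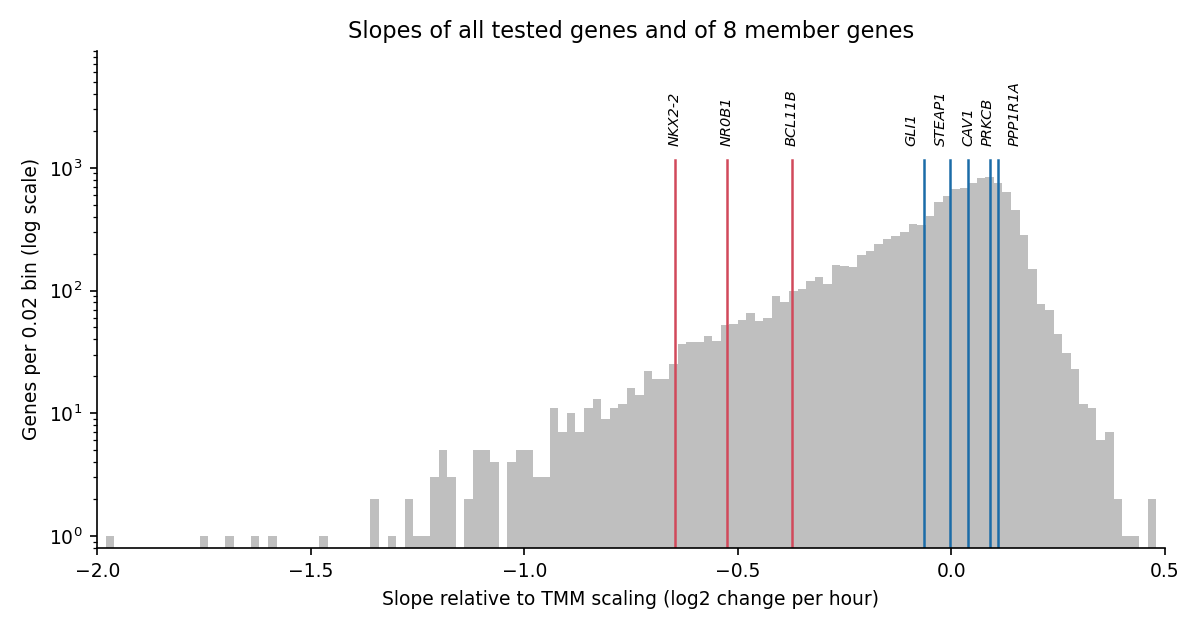
Distribution of the fitted slope (log2 per hour) over the 12032 genes tested, with the number of genes on a log axis and a vertical line for each of the 8 genes, red where it passed the test and blue where it did not. NKX2-2, NR0B1 and BCL11B lie in the left tail at -0.65, -0.53 and -0.37, and the other 5 lie near the centre of the distribution.

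NKX2-2 had the lowest slope of the 8 in the edgeR fit. With limma on log2 CPM plus 1, the slope of NR0B1 was lower (-0.51, against -0.49 for NKX2-2). The counts of NKX2-2 in replicates 1, 2 and 3 were 63, 76 and 87 at 0 h, 51, 55 and 62 at 1 h, 24, 39 and 27 at 2 h, and 10, 16 and 7 at 4 h. In CPM these were 6.20, 7.33 and 7.73 at 0 h and 1.18, 1.55 and 0.784 at 4 h, and every replicate was lower at each later time. The mean went from 7.08 ± 0.795 to 1.17 ± 0.382 CPM (SD, n = 3), 6.04-fold lower, and stood at 74.9%, 42.1% and 16.6% of its start after 1, 2 and 4 h. The slope was -0.65 log2 per hour (SE 0.060, adjusted p = 1.30e-07 in edgeR), and 2.14% of all genes had a lower slope. On the TMM scale this corresponds to a half-life of 1.54 h. With libraries scaled to GAPDH plus ACTB the slope was -0.78, which gives a shorter half-life. With 7 to 16 counts per library at 4 h, the last point of this curve carries the largest counting error of the set. The gene lies at chromosome 20:21511017-21514064 (GRCh38, minus strand). Of the 2123 bases of its canonical transcript, 638 overlap exons of the antisense gene NKX2-2-AS1. A further, unnamed gene on the opposite strand overlaps 295 bases of that transcript. Whether the counting used the strand of the reads is not stated.

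NR0B1 lost most of its transcript after the first hour. The 3 replicates held 381, 451 and 377 counts at 0 h, 363, 392 and 296 at 1 h, 233, 233 and 193 at 2 h, and 78, 105 and 69 at 4 h. Scaled, these were 37.5, 43.5 and 33.5 CPM at 0 h, 34.8, 38.5 and 26.9 at 1 h, 23.1, 23.6 and 18.7 at 2 h, and 9.24, 10.2 and 7.73 at 4 h. The libraries at 0 h and 1 h overlapped, and those at 2 h and 4 h lay below both and apart from each other. The mean fell from 38.2 ± 5.05 to 9.05 ± 1.23 CPM, 4.22-fold. Its slope was -0.53 log2 per hour (SE 0.046, adjusted p = 6.10e-08), a half-life of 1.90 h on the TMM scale. The slopes of the single replicates were -0.53, -0.55 and -0.54. With libraries scaled to GAPDH plus ACTB the slope was -0.66. This receptor gene with 2 exons lies at chromosome X:30304206-30309390 (GRCh38, minus strand).

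BCL11B stood as low at 2 h as at 4 h. Its counts were 469, 534 and 531 at 0 h, 338, 377 and 337 at 1 h, 155, 173 and 186 at 2 h, and 155, 168 and 177 at 4 h. As CPM these were 46.1, 51.5 and 47.2 at 0 h, 32.4, 37.0 and 30.6 at 1 h, 15.4, 17.5 and 18.0 at 2 h, and 18.4, 16.3 and 19.8 at 4 h. The 3 earlier times did not overlap, and the libraries at 2 h and 4 h did. The mean was 48.3 ± 2.86 CPM at 0 h, and 69.1%, 35.2% and 37.6% of it remained after 1, 2 and 4 h. The straight line gave -0.37 log2 per hour (SE 0.057, adjusted p = 2.51e-05), but the line runs through means of which the last did not continue the fall. BCL11B is encoded at chromosome 14:99169287-99272197 (GRCh38, minus strand), with a canonical transcript of 8528 bases.

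**Figure D3:**
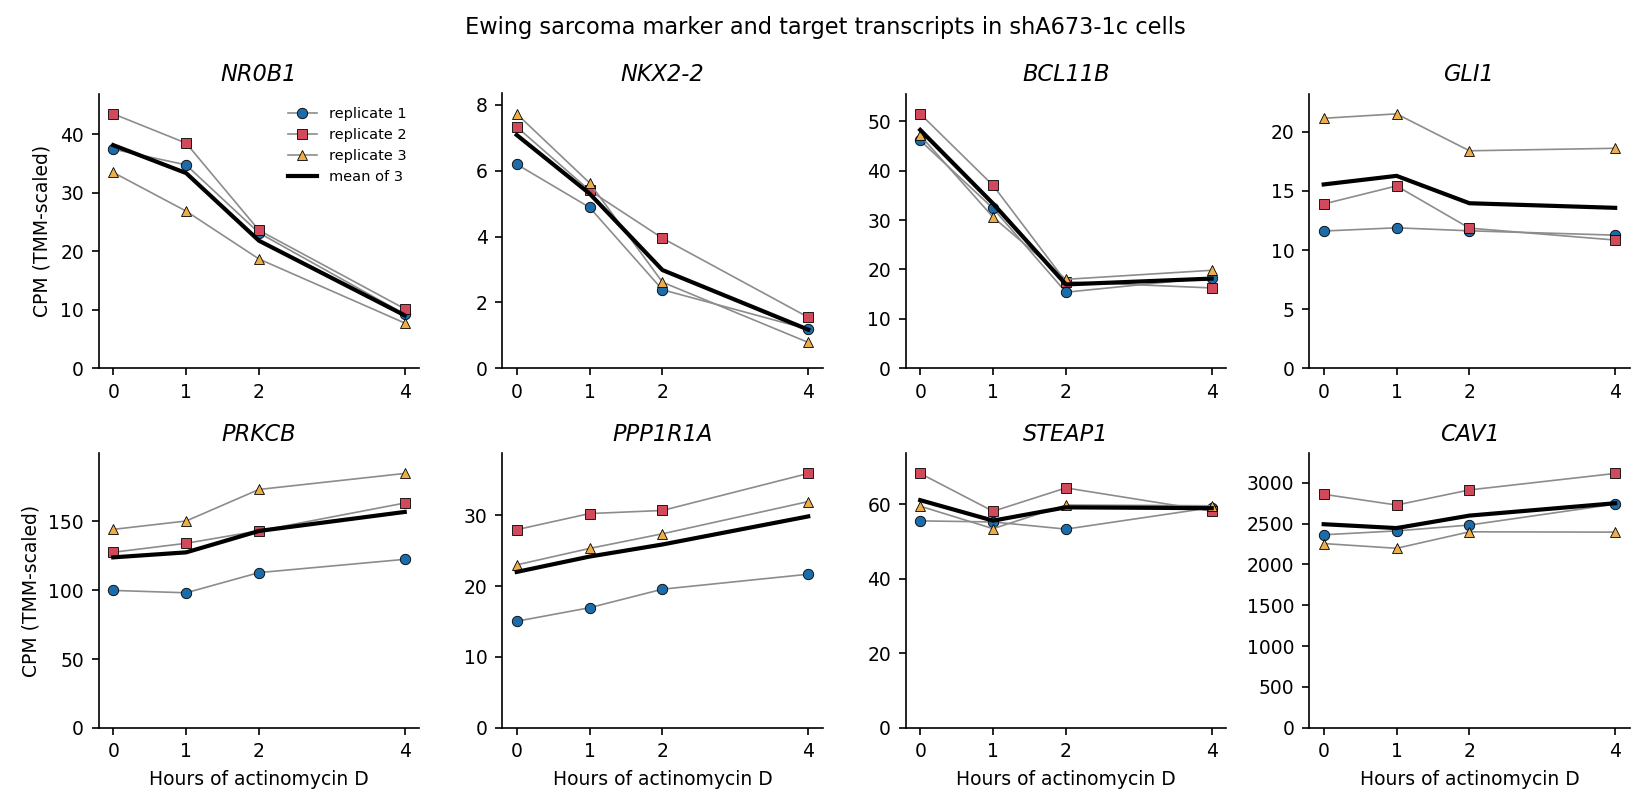
Level of each gene against hours of actinomycin D, 1 panel a gene, in TMM-scaled CPM; points are single libraries joined by replicate in grey, and the black line joins the means of 3. NR0B1 and NKX2-2 fall to 23.7% and 16.6% of their start at 4 h, BCL11B is level from 2 h, and PRKCB and PPP1R1A keep their replicates apart by a similar step at every time.

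Each time was also set against 0 h. At 1 h BCL11B alone was called lower (-0.53 log2, SE 0.096, adjusted p = 0.00772), where 2.24% of all genes tested were called lower and 0.349% higher. The changes of NKX2-2 and NR0B1 at 1 h were -0.42 (adjusted p = 0.357) and -0.19 (adjusted p = 0.620). The call of BCL11B was lost without replicate 1 (-0.55, adjusted p = 0.172) and without replicate 2 (-0.57, adjusted p = 0.130), at about the same size. At 2 h the same 3 genes as in the slope were lower, at -1.51 for BCL11B (adjusted p = 1.31e-07), -1.25 for NKX2-2 (adjusted p = 0.000474) and -0.81 for NR0B1 (adjusted p = 0.000728), with 19.4% of all genes called lower and 10.8% higher. By 4 h NKX2-2 stood at -2.57 (SE 0.25, adjusted p = 9.07e-07), NR0B1 at -2.07 (SE 0.16, adjusted p = 9.45e-08) and BCL11B at -1.41 (SE 0.10, adjusted p = 4.40e-08), with 31.6% of all genes called lower and 28.7% higher. In none of these contrasts was a gene of the set called higher with edgeR, DESeq2 or limma, and 0 had an unadjusted p below 0.05 in that direction. With the replicate number as a block, NR0B1 was also called at 1 h (-0.20, adjusted p = 0.0419), where 10.5% of all genes were called lower with the block. PRKCB, PPP1R1A and CAV1 were then called higher at 2 h, at 4 h and from 2 h to 4 h, where 23.9%, 36.8% and 25.3% of all genes were, with values of 0.34 (adjusted p = 1.09e-08), 0.44 (adjusted p = 7.21e-06) and 0.14 log2 (adjusted p = 1.54e-05) by 4 h.

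The interval from 2 h to 4 h was tested as well. NKX2-2 fell by a further 1.32 log2 (adjusted p = 0.00326) and NR0B1 by 1.26 (adjusted p = 9.23e-05), where 18.3% of all genes were called lower and 12% higher, while BCL11B changed by 0.093 (SE 0.11, adjusted p = 0.565). Over the first 2 h the drop of BCL11B corresponded to a half-life of 1.33 h, that of NKX2-2 to 1.60 h and that of NR0B1 to 2.48 h. Over the last 2 h NKX2-2 gave 1.52 h and NR0B1 1.58 h, and no half-life can be given for BCL11B with TMM. From 2 h to 4 h BCL11B changed by 0.0095 log2 with library totals. With libraries scaled to GAPDH plus ACTB it changed by -0.21 (adjusted p = 0.235 in edgeR). A ratio of one gene to another within a library does not depend on the scaling, and 12 such comparisons were made, chosen after the values were seen. From 2 h to 4 h the ratio of BCL11B to NR0B1 gained 1.36 ± 0.24 log2 (SD, n = 3), with 1.57, 1.10 and 1.41 in the 3 replicates. The ratio of BCL11B to NKX2-2 gained 1.41 ± 0.34 log2 in the same interval. Neither set of libraries overlapped between the times, and both had an exact permutation p of 0.1 (two-sided, adjusted 0.4), the smallest that 3 against 3 can give. The ratio of NKX2-2 to NR0B1 moved by -0.053 ± 0.38 log2 (exact permutation p = 0.8). Over the earlier hours the ratio of BCL11B to NKX2-2 overlapped between times, at -0.13 from 0 h to 1 h (exact permutation p = 0.4) and -0.12 from 1 h to 2 h (exact permutation p = 0.6), so these libraries do not separate the early courses of the pair.

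Sequence elements known to shorten the life of a transcript were counted in the 3' UTR of each gene. The pentamer ATTTA, the core of AU-rich elements, was searched on the transcript strand of the canonical GENCODE transcript. Of 10816 tested protein-coding genes 75.1% held at least 1 copy, and the median density was 1.78 per kb. BCL11B had 16 copies in 4864 bases (3.29 per kb, above 75.7% of genes). NR0B1 had 0 copies in 373 bases, and NKX2-2 had 1 in 906 bases. Among the genes that did not pass the test CAV1 had 3 copies and PRKCB 2, and GLI1, PPP1R1A and STEAP1 had 0. The longer element TTATTTATT, present in 10.1% of genes, was in none of the 9. Over all genes, those that fell had a median of 2.20 copies per kb and 85.9% had a copy, and those that rose had 1.02 per kb and 60.3%. The falling genes also had longer 3' UTRs (median 1900 against 875 bases), so the shares with a copy are not compared at equal length. Of the 3 genes that fell here, BCL11B lay above the median of falling genes and NR0B1 and NKX2-2 below it. Windows of 30 bases around 1 copy, in capitals, are given for the 4 genes with a copy, at bases 488 to 517 (NKX2-2), 216 to 245 (BCL11B), 232 to 261 (PRKCB) and 80 to 109 (CAV1) of the 3' UTR.
NKX2-2: gaaaatgctaaatATTTAtggccatgtaaa
BCL11B: caataatttctgtATTTAttgggttttgta
PRKCB: aagtcctcttacaATTTAttttccgcagca
CAV1: taatacagcaacaATTTAtgaattgaatta
A match to these letters is a description of the sequence and not a measured site.

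GLI1 did not pass the test. Its counts were 118, 144 and 238 at 0 h, 124, 157 and 237 at 1 h, 117, 117 and 190 at 2 h, and 95, 112 and 166 at 4 h. Replicate 3 was the highest at every time, at 21.1 CPM at 0 h and 18.6 CPM at 4 h, where replicate 1 had 11.6 and 11.3 CPM and replicate 2 had 13.9 and 10.8 CPM. The groups overlapped at all times, with means of 15.5 ± 4.98 CPM at 0 h and 13.6 ± 4.37 CPM at 4 h. Its slope was -0.063 log2 per hour (SE 0.064, adjusted p = 0.409), and it was -0.062 once the replicate block was added (adjusted p = 0.0452). The other GLI factors gave steeper slopes. GLI3, which acts mainly as a repressor of Hedgehog targets, fell at -0.59 log2 per hour (SE 0.039, adjusted p = 4.50e-09), and GLI2 fell at -0.26 (adjusted p = 0.000488). Within libraries the ratio of GLI3 to GLI1 changed by -0.38 log2 over the first hour, -0.61 over the second and -1.11 from 2 h to 4 h. The libraries overlapped in each of these intervals (exact permutation p = 0.5, 0.3 and 0.2, replicates not paired). Paired by replicate number, the ratio fell in every replicate in each interval. The changes in replicates 1, 2 and 3 were -0.42, -0.34 and -0.38 over the first hour and -0.76, -0.41 and -0.67 over the second. From 2 h to 4 h they were -0.83, -1.16 and -1.34. Among other Hedgehog genes with enough counts, the receptor PTCH1 and the GLI inhibitor SUFU fell, at -0.28 and -0.26 log2 per hour, and the transducer SMO rose with TMM, at 0.041. Scaled to GAPDH plus ACTB, SMO turned to -0.097 (adjusted p = 0.00226), while GLI2, GLI3, PTCH1 and SUFU fell under each scaling.

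PRKCB and PPP1R1A did not pass the test without the block. PRKCB stood at 99.8, 127.5 and 144.2 CPM at 0 h, 98.1, 134.1 and 150.2 at 1 h, 112.8, 143.1 and 173.2 at 2 h, and 122.4, 163.3 and 184.8 at 4 h. The spread between replicates was wider than the step between times, so the groups overlapped, yet each replicate ended above its own start, at 122.6%, 128.0% and 128.2% of it. The slope was 0.090 log2 per hour (SE 0.042, adjusted p = 0.0738), and blocked by replicate it was the same size and called (0.090, adjusted p = 1.39e-06). PPP1R1A had 15.05, 28.0 and 23.0 CPM at 0 h and 21.7, 35.9 and 31.9 CPM at 4 h, which is 144.1%, 128.4% and 138.8% of the start in the 3 replicates. Replicate 1 was the lowest at every time for both genes. The slope of PPP1R1A was 0.11 log2 per hour (SE 0.056, adjusted p = 0.0997), and 0.11 with the block (adjusted p = 3.73e-05). Leaving out replicate 1 also brought both past the threshold, PRKCB at 0.092 (adjusted p = 0.00771) and PPP1R1A at 0.10 (adjusted p = 0.0158). Scaled to GAPDH plus ACTB both slopes turned negative, at -0.047 (adjusted p = 0.458) and -0.027 (adjusted p = 0.722), so no direction is read for them.

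STEAP1 and CAV1, the membrane proteins with counts, had the slopes nearest to 0 in the TMM fit. STEAP1 had 55.6, 68.3 and 59.5 CPM at 0 h and 59.1, 58.2 and 59.6 CPM at 4 h, with a slope of -0.0035 log2 per hour (SE 0.021, adjusted p = 0.896). CAV1 had 2363, 2859 and 2255 CPM at 0 h and 2738, 3114 and 2395 CPM at 4 h. Its slope was 0.040 log2 per hour (SE 0.025, adjusted p = 0.179), and 0.040 with the block (adjusted p = 0.000592). Under the scaling to GAPDH plus ACTB both were called lower, STEAP1 at -0.14 (adjusted p = 0.000142) and CAV1 at -0.097 (adjusted p = 0.00254), and so was GLI1 at -0.20 (adjusted p = 0.0227). With NR0B1, NKX2-2 and BCL11B this made 6 of 8 lower, where 64.2% of all genes were. That scaling moved the median slope of all genes by -0.14 log2 per hour, since GAPDH and ACTB themselves had slopes of 0.15 and 0.12 with TMM. Over all genes it gave 7729 lower and 112 higher calls, where TMM gave 3859 and 3694 and library totals 4704 and 2242. NR0B1, NKX2-2 and BCL11B were called lower under each of these scalings.

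**Figure D4:**
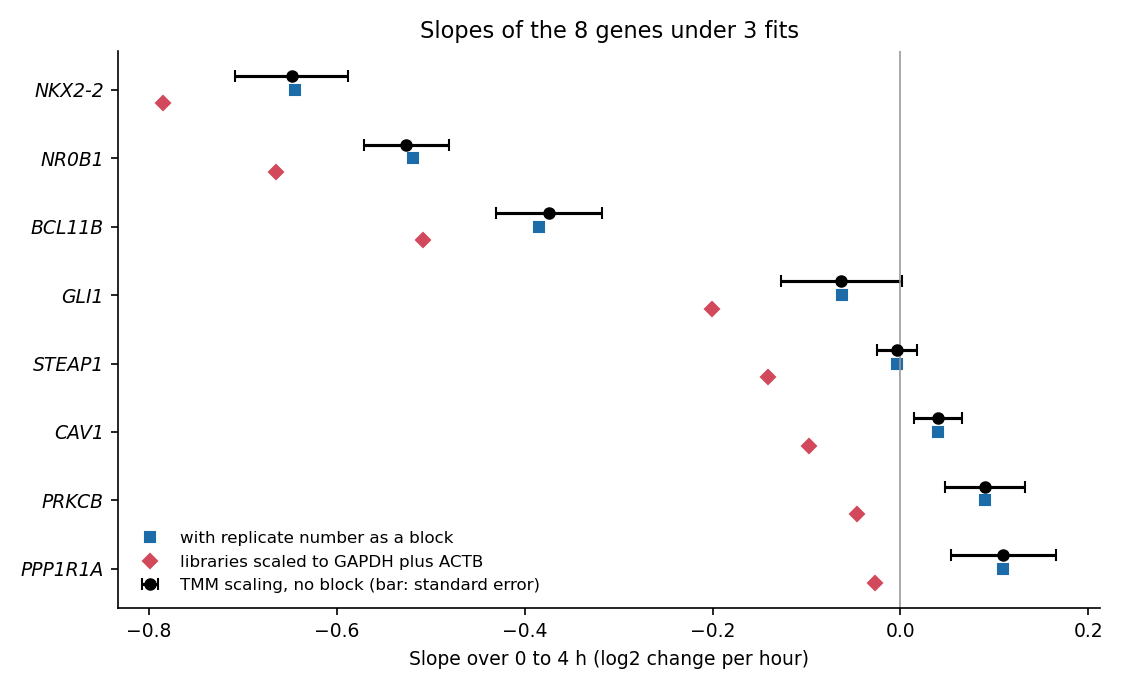
Slope in log2 per hour of the 8 genes in the fit without a block, with the replicate block and with scaling to GAPDH plus ACTB; symbols are estimates, and the bars of the fit without a block are 1 SE. NR0B1, NKX2-2 and BCL11B stay below 0 in all 3 fits, and PRKCB and PPP1R1A lie above 0 with TMM and below 0 with the GAPDH plus ACTB scaling.

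The ratio of each gene to GAPDH within a library needs no scaling between libraries. At 4 h it was lower than at 0 h without overlap for 5 of 8 genes, where 70.0% of all genes tested were lower in this way and 1.18% higher, and it was higher without overlap for 0 of 8. The mean differences were -3.17 log2 for NKX2-2, -2.66 for NR0B1, -2.0 for BCL11B, -0.63 for STEAP1 and -0.45 for CAV1, each with an exact permutation p of 0.1, the smallest possible. GLI1 (-0.78, exact permutation p = 0.2), PRKCB (-0.25, exact permutation p = 0.5) and PPP1R1A (-0.14, exact permutation p = 0.7) overlapped. Paired by replicate number, the ratio was lower at 4 h in 3 of 3 pairs for all 8 genes, as it was for 82.6% of all genes tested. CD99 had been meant as the reference and could not serve, being listed at 0.

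The 2 genes that make the fusion were read as well. FLI1 counts fell at -0.50 log2 per hour (SE 0.040, adjusted p = 2.47e-08, half-life 2.00 h), from 80.1 ± 2.07 to 20.4 ± 4.43 CPM. EWSR1 rose with TMM scaling at 0.092 log2 per hour (SE 0.020, adjusted p = 0.000626), and scaled to GAPDH plus ACTB it turned to -0.046 (adjusted p = 0.0333). Counts per gene symbol cannot separate fusion reads from those of the intact genes.

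Other known targets moved in both directions. Of 34 tested genes in a list of 37 that the fusion is known to activate, 16 fell (47.1%), 12 rose (35.3%) and 6 did not pass the test, with a median slope of -0.024 log2 per hour, beside 32.1% falling, 30.7% rising and a median of 0.0093 over all genes. Of 8 tested genes in a list of 11 that it represses, 3 fell (37.5%), 1 rose (12.5%) and 4 did not pass. These calls are from the fit without the block. In both lists the replicate block added calls in each direction among the genes that did not pass. The steepest falls were those of the stem cell factor SOX2 (-0.91 log2 per hour, half-life 1.10 h), the inhibitor of basic helix-loop-helix factors ID2 (-0.82, 1.22 h) and the zinc finger factor EGR2 (-0.73, 1.37 h). From the repressed list the forkhead factor FOXO1 (-0.72, 1.39 h) and PHLDA1 (-0.63, 1.58 h) followed. The steepest rises were those of the telomerase subunit TERT (0.24 log2 per hour), KCNAB3 (0.19), the Fc receptor FCGRT (0.18), the glutathione transferase GSTM4 (0.15) and the matrix protein tenascin C, TNC (0.14). Scaled to GAPDH plus ACTB the 5 falls held, and of the rises TERT alone was still called (0.11, adjusted p = 0.0336), with the other 4 between 0.0010 and 0.052.

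**Figure D5:**
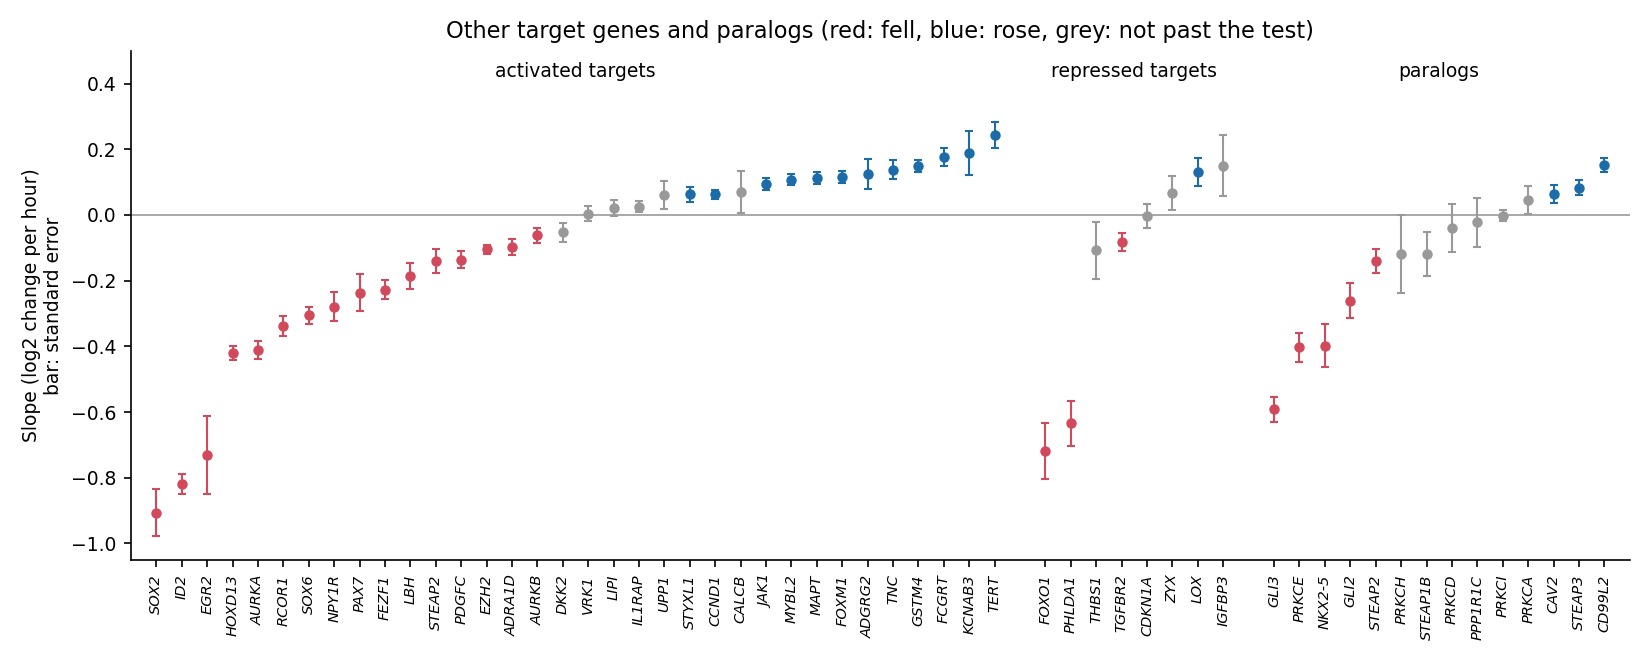
Slope in log2 per hour (TMM, no block, bars 1 SE) of the tested genes in the lists of fusion-activated targets, fusion-repressed targets and paralogs. Each point is 1 gene, red where it fell, blue where it rose and grey where it did not pass the test. All 3 lists hold falling and rising genes, from SOX2 at -0.91 to TERT at 0.24.

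The relatives and partners of the 9 genes were read from lists of 26 and 12 genes. In the fit without the block, 32.1% of all genes fell and 30.7% rose. Of 14 tested paralogs 5 fell (35.7%), 3 rose (21.4%) and 6 did not pass. Of these 6, PRKCA (0.045, adjusted p = 0.00547) and STEAP1B (-0.12, adjusted p = 0.00392) were called with the replicate block, and the others were not. Scaled to GAPDH plus ACTB, PRKCA turned to -0.092 (adjusted p = 0.0300). The cardiac homeobox gene NKX2-5 fell at -0.40 log2 per hour (adjusted p = 5.47e-05), less steeply than NKX2-2, and BCL11A had too few counts for the test. PRKCE fell at -0.40 (adjusted p = 7.36e-07), whereas PRKCA, like PRKCB a classical isoform, had a slope of 0.046 (adjusted p = 0.353). STEAP2 fell at -0.14 (adjusted p = 0.00396), STEAP3 rose at 0.083, CD99L2 at 0.15 and CAV2, the caveolin that pairs with CAV1, at 0.064 (adjusted p = 0.0432). With the GAPDH plus ACTB scaling STEAP3 turned to -0.055 and was called lower (adjusted p = 0.0255). CAV2 turned to -0.073 (adjusted p = 0.0775) and CD99L2 came to 0.014 (adjusted p = 0.684), neither of them called. STEAP1B, whose sequence is close to STEAP1, gave -0.12 (adjusted p = 0.139), and reads may have been divided between them. Without the block 2 of 9 tested partners fell (22.2%), 3 rose (33.3%) and 4 did not pass, beside 32.1% and 30.7% of all genes. Among these 4, PPP1CB (0.043, adjusted p = 0.00597) and CAVIN1 (0.11, adjusted p = 8.25e-08) were called higher with the replicate block. With the GAPDH plus ACTB scaling PPP1CB turned to -0.094 and was called lower (adjusted p = 0.00776), and CAVIN1 was not called (adjusted p = 0.610). PPP1CA, a catalytic subunit of the phosphatase that PPP1R1A inhibits, rose with TMM at 0.13 and was at -0.0052 with the GAPDH plus ACTB scaling, and the caveolar coat gene CAVIN1 (listed as PTRF) had 0.11 (adjusted p = 0.0598) and -0.026 on these scales.

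The genes most like NKX2-2 and PPP1R1A, which had the lowest and the highest slope of the set, were sought among 8849 genes that averaged 100 counts or more. Likeness was the Euclidean distance between mean log2 changes from 0 h at 1, 2 and 4 h, over 12 libraries that all genes share. Closest to NKX2-2 were SIAH2 (distance 0.116), GSPT2 (0.134), WDR89 (0.137), TSC22D1 (0.143) and FBXO42 (0.184). SIAH2, for example, changed by -0.36, -1.16 and -2.60 log2, where NKX2-2 changed by -0.41, -1.26 and -2.58. Among the closest to PPP1R1A were LINC00674 (0.0129), ATP6V0D1 (0.0181), FPGS (0.0182) and SMC1A (0.0234).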

How the data were processed

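Raw read counts by gene symbol were deposited by the authors for 12 polyadenylated RNA libraries (TruSeq stranded mRNA). The submitters' processing notes name FastQC, STAR and hg19. The counting tool, annotation, strand setting and treatment of reads with several matches are not given in the sources used here. Columns were matched to samples by title, with 0 unmatched. Genes that averaged 10 counts or more were tested with edgeR 4.0.16 (R 4.3.3, TMM, glmQLFit and glmQLFTest), with time in hours as a number or as 4 groups, without a block, and the Benjamini-Hochberg adjustment over 12032 genes (threshold 0.05). Half-lives were taken as -1 over the slope with TMM. They are relative to the RNA that remained in each library and depend on the scaling. Ratios used counts plus 0.5. The common biological coefficient of variation was 0.0905. Replicates of a time differed by more than sampling noise (chi-square per degree of freedom 3.20 to 8.65). Deviations from the time means correlated at 0.285 to 0.596 in all 18 pairs of libraries with the same replicate number and at -0.393 to 0.0779 in the other 36, so the numbers were taken to pair the samples. The fit was tested on simulated data. Loci and transcripts are those of GENCODE on GRCh38 and promoters those of RefSeq, matched by name, and no sequence was read by hg19 coordinates. Alternatives used DESeq2 1.42.0 and limma 3.58.1. Named are all 9 genes, EWSR1 and FLI1, tested paralogs and partners, and from the target lists the 5 steepest falls and rises past the threshold with the same sign in 3 of 3 replicates. The 9 genes and all lists were chosen with earlier results of these data known. The lists came from general knowledge of these genes, and a gene was matched by symbol or by 1 other name. A few genes and a sequence that these rules would name are not reported here.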

Additional observations from a re-analysis of the deposited data

How the results depend on the processing

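NR0B1, NKX2-2 and BCL11B kept a falling slope past the threshold in 13 of 13 alternatives each, between -0.66 and -0.39, -0.78 and -0.49, and -0.73 and -0.27 log2 per hour. With the replicate block, which fits the pairing of the samples, 3 genes (PRKCB, PPP1R1A and CAV1) instead of 0 were called higher in the slope, at 2 h, at 4 h and from 2 h to 4 h (36.2%, 23.9%, 36.8% and 25.3% of all genes), 2 instead of 1 lower at 1 h, and the GAPDH ratio was lower in all pairs for 8 genes (82.6% of all genes) instead of 5 without overlap. It moved the calls over all genes at 1 h from 269 lower and 42 higher to 1261 and 744. Scaling to GAPDH plus ACTB gave 6 instead of 3 genes lower in the slope and 5 instead of 3 at 4 h. It turned the slopes of PRKCB (-0.047), PPP1R1A (-0.027) and CAV1 (-0.097), the 1 h values of GLI1 (-0.052) and PRKCB (-0.072), the 2 h values of PRKCB (-0.034), PPP1R1A (-0.011) and CAV1 (-0.18), their 4 h values (-0.20, -0.098 and -0.41), and, from 2 h to 4 h, BCL11B (-0.21), PRKCB (-0.17), PPP1R1A (-0.087) and CAV1 (-0.22). Over all genes it left 537 lower and 3 higher at 1 h, 4156 and 11 at 2 h, 7612 and 111 at 4 h, and 4857 and 9 from 2 h to 4 h, since the reference genes rose with TMM. Library totals turned CAV1 at 2 h (-0.0018), at 4 h (-0.0060) and from 2 h to 4 h (-0.0041), and gave 602, 2120 and 576 higher calls over all genes at these contrasts, where TMM gave 1297, 3448 and 1449. Leaving out 1 replicate gave 0 to 2 genes higher in the slope and at 4 h (PRKCB and PPP1R1A, without replicate 1), and 0 to 1 lower at 1 h. The ratio to GAPDH was lower without overlap for 5 to 7 genes in these sets. Fewer libraries a time separate more easily, and the share over all genes in these sets is not given here. No result about the genes is therefore read from that count. With 1 replicate left out, the calls at 1 h over all genes ran from 1 to 157 lower and from 0 to 11 higher. Higher calls ran as low as 426 at 2 h and 501 from 2 h to 4 h, where lower calls ran as low as 1334 instead of 2199. Leaving out 1 replicate moved STEAP1 between -0.017 and 0.017 in the slope, -0.12 and 0.045 at 4 h, and -0.077 and 0.069 from 2 h to 4 h, above 0 without replicate 2. STEAP1 also turned with 1, 2 and 4 h only (0.019). With 0, 1 and 2 h only, 2215 genes fell and 1447 rose. DESeq2 gave 74 higher calls at 1 h. Causes were not tested. The ratios to CD99 were not run, since CD99 was listed at 0. With the longest transcript in place of the canonical one the order of levels at 0 h was the same, with PPP1R1A at 8.84 CPM per kb. Depth limits the last point of NKX2-2, at 7 to 16 counts.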
